A study of Papio hamadryas with 72 samples.

Results

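Macrophages were followed through 9 genes that mark them, or mark Kupffer cells, in liver, omental adipose tissue and vastus lateralis skeletal muscle of juvenile baboons. The genes are CSF1R, C1QA, C1QB, C1QC, CD163, CD68, CD14, MARCO and VSIG4. They were chosen by name and found by symbol among the 16828 genes that had a probe with 1 symbol, and each gene was read from its brightest detected probe. All 9 passed the detection filter in liver and in adipose tissue, and 7 of the 9 passed it in muscle, where CD163 was detected on 1 of 24 arrays and MARCO on 2 of 24.

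The animals were 12 juveniles aged 4.5 years. The mothers of 6 (CON) were fed freely, and the mothers of the other 6 (MUN, maternal undernutrition) were fed a restricted amount of the same food in pregnancy and lactation, with 3 females and 3 males in each group. Every animal was sampled by biopsy on chow and again after 7 weeks on HFCS, a Western style diet high in fat, sugar and salt given with a fructose drink, which gave 72 arrays in 12 groups of 6. No animal with arrays here stayed on chow, so diet, time and the earlier biopsy cannot be told apart. Each replicate number stands for 1 animal, the same one on both diets and in all 3 tissues.

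Kupffer cells are the macrophages that live in the sinusoids of the liver, where they clear microbes, worn red cells and debris from portal blood. Resident macrophages of fat and muscle clear dying cells and take part in repair, and macrophages gather in fat in obesity. CSF1R is the receptor for the growth factors CSF1 and IL34, on which most tissue macrophages depend for survival. C1QA, C1QB and C1QC encode the chains of C1q, the recognition molecule of the classical complement pathway, made largely by macrophages. CD163 takes up haemoglobin bound to haptoglobin, VSIG4 is a complement receptor of resident macrophages, and MARCO is a scavenger receptor for bacteria and particles. CD68 is a glycoprotein of lysosomes and endosomes, rich in macrophages but present in other cells, and CD14 is a co-receptor for bacterial lipopolysaccharide that hepatocytes also make.

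Values are log2 signals, normalised within a tissue unless stated otherwise, and differences are in log2 units. In bulk tissue, fewer macrophages and less RNA per macrophage cannot be told apart. An array was called weak where its median correlation with the other arrays of its tissue was under 0.9, which held for liver MUN replicates 4 and 6 on chow, liver MUN replicate 4 on HFCS and muscle CON replicate 5 on chow, all from males. Between 3179 and 10136 probes were detected on the weak arrays, and at least 9774 on every other array. Of the defining markers, albumin (ALB) had a median of 14.26 in liver against 7.22 in adipose tissue, and the muscle actin ACTA1 had a median of 13.00 in muscle against 7.04 in liver. The fat droplet protein PLIN1 had a median of 8.64 in adipose tissue against 7.08 in muscle, whereas the adipokine ADIPOQ did not set fat apart, with a median of 7.25 in adipose tissue and 7.24 in muscle. Muscle CON replicate 1 on chow carried ALB at 14.31, where the next muscle array stood at 7.60, and the hepatocyte protein TTR at 12.22, where the next stood at 7.48.

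The first comparison asked where the markers were highest. With the 72 arrays normalised together, every marker was lowest in muscle, and liver and adipose tissue were close for most of them. Against muscle, 9 of 9 were called higher in liver, where 26.4% of the 10966 genes tested were called higher, and 9 of 9 were called higher in adipose tissue, where 24.0% were. A call here is a Benjamini-Hochberg adjusted p under 0.05 over all genes from limma with a fold change of at least 1.2. CD163 and MARCO entered the comparison with muscle only through the tissues where they were detected, so their calls there add nothing.

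**Figure D1:**
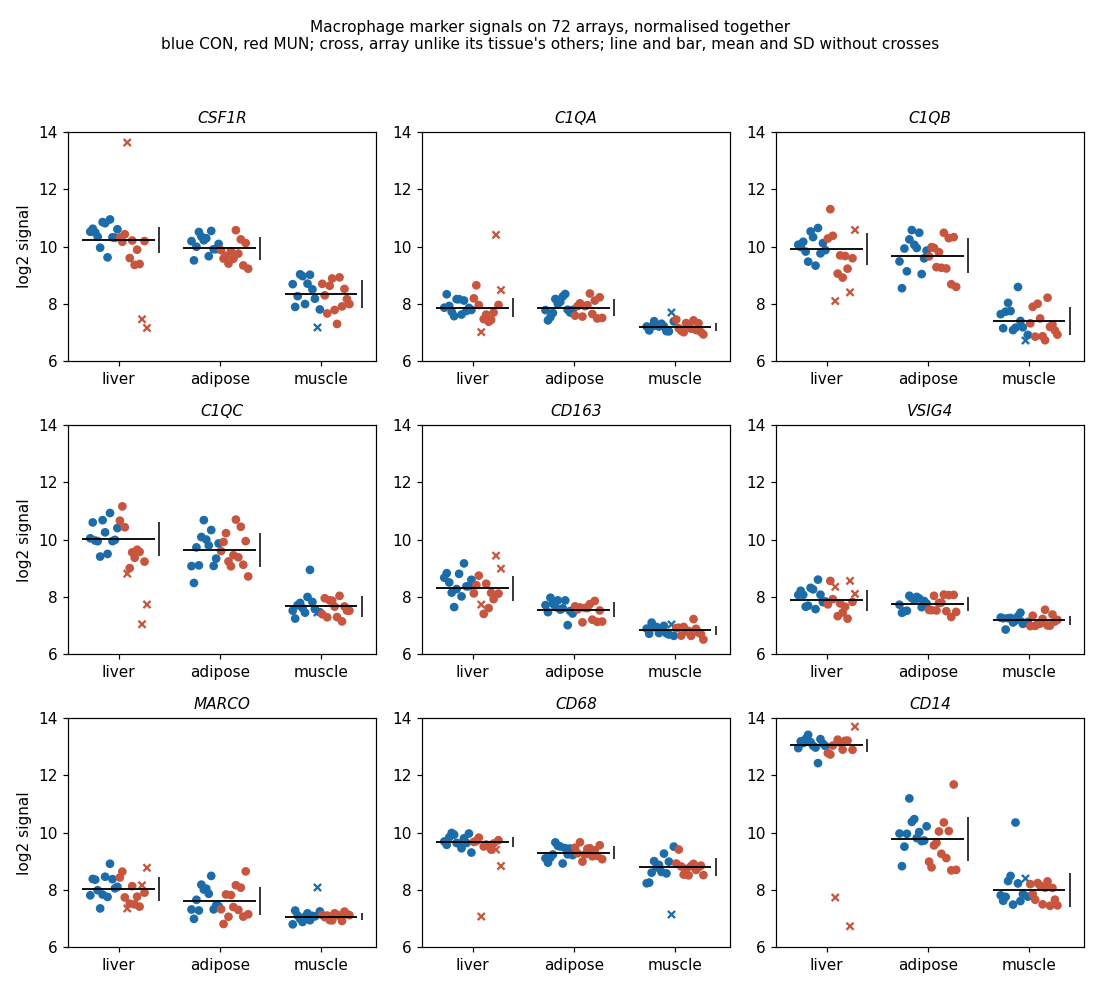
Log2 signal of each marker (vertical axis) on every array of liver, adipose tissue and muscle, normalised over 72 arrays. Points are arrays, blue for CON and red for MUN, crosses are the 4 weak arrays, and lines and bars are the mean and SD without them. Liver CD14 stands near 13 on all arrays but 2 weak ones, and muscle CD14 has 1 array at 10.36, the one that carried ALB.

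CD14 set the tissues furthest apart. Its median was 13.08 in liver (range 6.74 to 13.70), 9.77 in adipose tissue (8.69 to 11.69) and 7.86 in muscle (7.45 to 10.36). The liver values under 8 came from weak arrays, and without them liver ran from 12.64 to 13.64, above every array of the other tissues. The liver minus adipose difference was 2.82 (standard error 0.32) over all arrays and 3.36 (0.18) without the weak ones, a 10.3-fold difference, and both were called.

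The markers most tied to Kupffer cells were higher in liver than in fat by smaller amounts. CD163 had a median of 8.37 in liver and 7.61 in adipose tissue, a difference of 0.80 (standard error 0.10) that was called. MARCO had a median of 8.03 in liver and 7.45 in adipose tissue, a difference of 0.42 (0.12) that was also called. The ranges of MARCO overlapped widely, from 7.36 to 8.92 in liver and from 6.82 to 8.65 in adipose tissue. VSIG4 differed by 0.20 (0.08, adjusted p = 0.0323), under the fold required.

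C1QA and C1QB stood at similar levels in liver and fat. C1QB had a median of 9.85 in liver and 9.83 in adipose tissue, and C1QA 7.87 and 7.86. Their liver minus adipose differences were 0.12 (standard error 0.18) and 0.10 (0.12). CSF1R had a median of 10.32 in liver and 9.91 in adipose tissue. Without the weak arrays its means were 10.38 and 10.07, and it was not called with or without them. In total 3 of 9 markers were called higher in liver than in adipose tissue, where 22.8% of all genes were. Without the weak arrays 5 of 9 were called, with C1QC at 0.35 (0.16, adjusted p = 0.0459) and CD68 at 0.37 (0.08, adjusted p = 1.35e-05) added, against 23.6% of all genes.

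Muscle carried low macrophage signal, and only CSF1R, C1QC, CD68 and CD14 were detected on most of its arrays. CSF1R had a median of 8.29 in muscle against 9.91 in adipose tissue, a difference of 1.64 (standard error 0.20) that was called. C1QB had a median of 7.24 in muscle and was detected on 12 of 24 arrays, and the adipose minus muscle difference was 2.30 (0.18). CD68 stood at 8.80 in muscle and 9.27 in adipose tissue, a difference of 0.58 (0.13), and VSIG4 differed by 0.57 (0.08). VSIG4 was detected on 10 of 24 muscle arrays, so the background there limits the size of its difference, as it does for C1QB. Lower bounds were set from the dimmest signal that counts as detected, without the weak arrays. By these CD163 was at least 2.16-fold higher in liver and at least 1.26-fold higher in adipose tissue than in muscle. MARCO was at least 1.77-fold and 1.32-fold higher. Both genes were kept only through liver and adipose tissue, so the bounds describe their signals and are not a test.

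Next, MUN and CON livers were compared on chow, which asked whether the mother's diet had left a mark on liver macrophages before the challenge. Most markers were lower in MUN livers, and none was called. Over all arrays 8 of 9 had a negative MUN minus CON difference, with a median of -0.33, and 0 of 9 were called, where 0% of the 8685 genes tested were. The 2 weak MUN arrays carry much of these values, so the groups are given without them in what follows, as 6 CON arrays against 4 MUN arrays from 3 females and 1 male.

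CSF1R had the difference with the smallest p. It stood at 9.57, 10.48 and 11.00 in CON livers (lowest, median and highest), and at 9.28, 9.86, 9.32 and 10.19 in MUN replicates 1, 2, 3 and 5. CON replicate 2 lay inside the MUN range and the other CON livers above it. The difference was -0.79 (standard error 0.25, unadjusted p = 0.00422, adjusted p = 1.00 from limma), a 1.73-fold lower signal.

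The C1q chains pointed the same way. C1QC stood at 9.44, 10.11 and 10.98 in CON and at 9.29, 9.60, 9.52 and 9.14 in MUN, so that only CON replicate 2 fell within the MUN values. Its difference was -0.78 (0.36, unadjusted p = 0.0423). C1QB stood at 9.25, 9.98 and 10.68 in CON and at 8.81, 9.62, 9.14 and 9.54 in MUN, and its difference was -0.72 (0.34, unadjusted p = 0.0484). For C1QA the difference was -0.27 (0.19, unadjusted p = 0.178), with CON from 7.49 to 8.03 and MUN from 7.24 to 7.83.

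The scavenger and complement receptors of Kupffer cells also stood lower in MUN. MARCO stood at 7.63, 8.11 and 8.81 in CON and at 7.36, 7.64, 7.28 and 7.77 in MUN, a difference of -0.64 (0.23, unadjusted p = 0.0128). CD163 stood at 7.88, 8.36 and 9.08 in CON and at 7.47, 8.01, 7.79 and 7.98 in MUN, a difference of -0.62 (0.25, unadjusted p = 0.0222). The other kept probe of CD163 gave 0.04 (0.14), so its probes disagreed. VSIG4 ran from 7.44 to 8.48 in CON and from 7.09 to 7.69 in MUN, a difference of -0.49 (0.21, unadjusted p = 0.0285). In each of these genes the groups overlapped, and CON replicate 2 was the lowest CON liver.

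CD68 and CD14 did not share the pattern. CD68 ran from 9.22 to 9.95 in CON and from 9.34 to 9.69 in MUN, with a difference of -0.06 (0.12). The other 2 kept probes of CD68 gave -0.44 (0.18, unadjusted p = 0.0250) and -0.09 (0.10), so the probes of this gene disagreed in size. CD14 ran from 12.54 to 13.46 in CON and from 13.03 to 13.40 in MUN, with a difference of 0.09 (0.15).

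**Figure D2:**
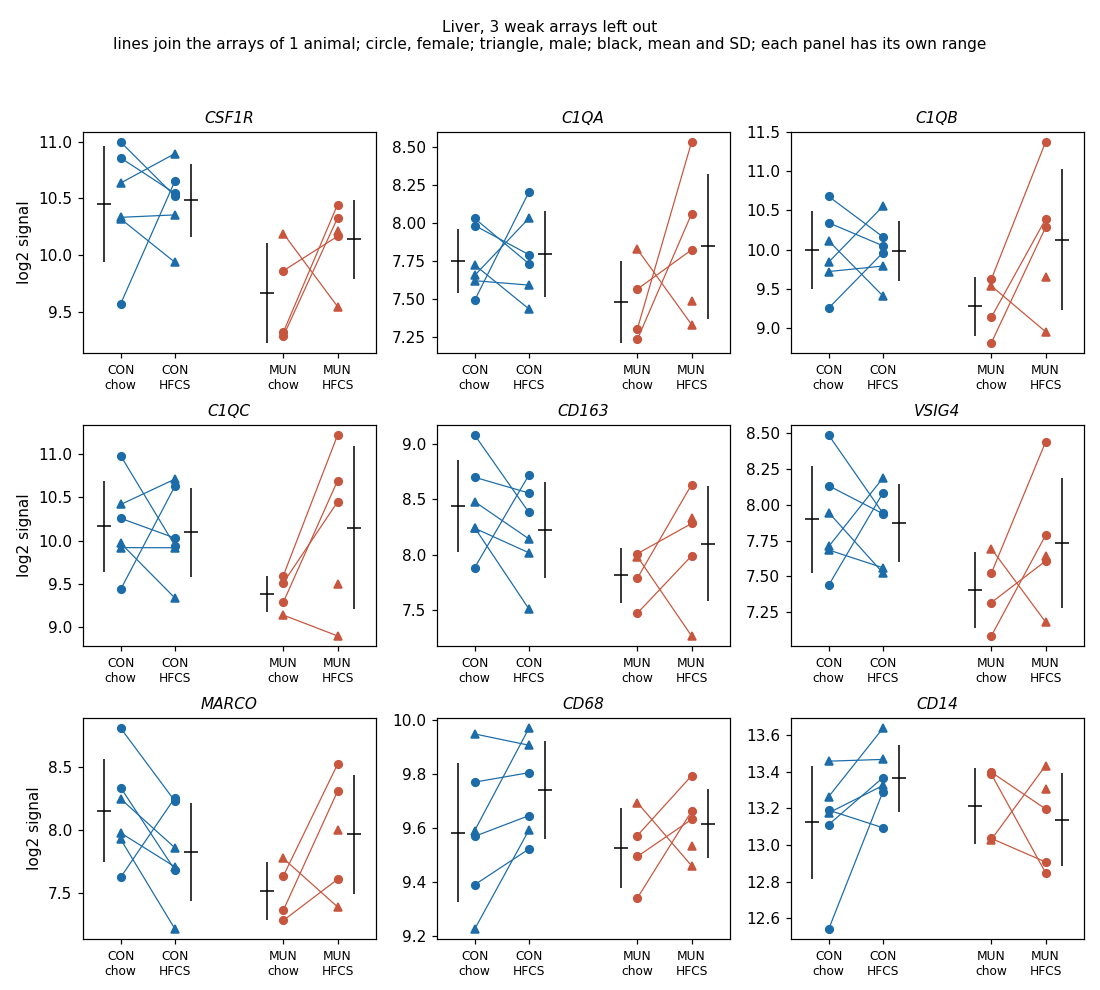
Log2 signal of each marker (vertical axis, its own range in each panel) in CON and MUN livers on chow and HFCS without the 3 weak arrays. Lines join the arrays of 1 animal, circles are females, triangles males, and black marks the group mean and SD. In CSF1R, C1QB, C1QC and MARCO the MUN arrays on chow sit low and the 3 MUN females end higher on HFCS.

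In all, 8 of 9 markers were lower in MUN livers on chow without the weak arrays, with a median difference of -0.62 beside 0.01 over all genes. At an unadjusted p under 0.05, 6 of 9 were lower, where 2.18% of all genes were, and after adjustment 0 of 9 and 0% of all genes were called. With array weights, which keep all arrays, the median was -0.60 and the adjusted p of CSF1R was 0.204. In females alone, 3 against 3, 8 of 9 were lower with a median of -0.76. Among males the comparison rests on the 2 weak arrays and MUN replicate 5, and 5 of 9 were lower. None of the markers was called in either sex, and these fits within a sex were chosen after the values were seen.

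The weak arrays held values that no other liver approached. CSF1R stood at 7.26 and 6.98 on the weak MUN chow arrays of replicates 4 and 6 and at 13.40 on the weak HFCS array of replicate 4. CD14 stood at 6.72 and 7.66 on the 2 arrays of replicate 4, where the other liver arrays lay at 12.08 or above. C1QA moved the other way, at 10.08 on the chow array of replicate 4 against at most 8.34 on every array that was not weak. With these arrays in, the MUN minus CON differences on chow were -1.48 (0.55) for CSF1R, -1.36 (0.42) for C1QC, 0.34 (0.35) for C1QA and -0.80 (0.91) for CD14. The direction of C1QA and of CD14 therefore differed with and without them.

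Other macrophage and liver cell genes were set beside the markers on chow, without the weak arrays. Of 13 measured pan-myeloid genes, 12 had a lower signal in MUN, with a median of -0.12, and of 6 measured genes of resident macrophages 6 did, with a median of -0.28. None of them was called. Other Kupffer cell genes formed a further list, from which HMOX1, CETP and FOLR2 were picked for their small p. HMOX1, the haem-degrading enzyme, stood at -0.66 (0.18), and the folate receptor FOLR2 at -0.31 (0.09). CETP, a lipid transfer protein made by Kupffer cells in humans, stood at -1.17 (0.32). The rest of that list is not given here, so these genes do not stand for it. Of the resident macrophage genes, the receptor kinase AXL stood at -0.37 (0.11). FCER1G, an adaptor of Fc receptors from a list of myeloid signalling genes, stood at -0.72 (0.25). Each of these 5 genes had an adjusted p of 1.00.

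Genes of other liver cells were partly lower as well. Of 6 measured genes of sinusoidal endothelium 6 were lower in MUN, with a median of -0.22, and OIT3 had the smallest p, at -0.35 (0.12). The mean over these genes ran from 8.08 to 8.61 in CON livers and from 7.82 to 8.24 in MUN livers. Of 10 hepatocyte genes 9 were higher, with a median of 0.03, and their mean ran from 11.93 to 12.59 in CON and from 12.34 to 12.56 in MUN. Of 6 measured T cell genes 5 were lower, with a median of -0.10, and of 6 fibroblast genes 6 were, with a median of -0.05. The part of these cells in the marker values was not tested.

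After 7 weeks of HFCS the markers of MUN and CON livers had no common direction. Without the weak arrays 5 of 9 markers were lower and 4 higher in MUN, with a median of -0.12, and 0 of 9 were called, where 0% of all genes were. C1QC stood at 9.34, 9.99 and 10.71 in CON and at 10.69, 11.22, 10.45, 8.90 and 9.50 in MUN replicates 1, 2, 3, 5 and 6, a difference of 0.06 (0.34). CSF1R stood at 9.94, 10.53 and 10.90 in CON and at 10.33, 10.17, 10.44, 9.54 and 10.21 in MUN, a difference of -0.35 (0.23, unadjusted p = 0.149). The MUN values of the C1q chains spread widely, with the 3 females above the males in C1QA, C1QB and C1QC.

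HFCS was then compared with chow. In MUN livers 8 of 9 markers were higher on HFCS in the fit of 5 HFCS against 4 chow arrays that were not weak, with a median difference of 0.36, and 0 of 9 were called, where 0% of all genes were. C1QB had the smallest p, with a difference of 0.85 (0.35, unadjusted p = 0.0256, adjusted p = 1.00). Only 4 MUN animals had both arrays. In each of MUN females 1, 2 and 3, 8 of 9 markers were higher on HFCS than on chow, with a median change per animal of 0.82, 0.89 and 0.70. CD14 was the marker that was not, in each of the 3. With the weak arrays in, 5 of 9 were higher in MUN, with CSF1R at 1.79 (0.55, adjusted p = 0.471) and C1QA at -0.38 (0.35). MUN male 5 went the other way, with 8 of 9 lower and a median of -0.49, and MUN males 4 and 6 had no pair of arrays without a weak one.

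CON livers did not share a direction. CON replicate 2 had 9 of 9 markers higher on HFCS, with a median change of 0.71, and CON replicate 5 had 8 of 9 lower, with a median of -0.38. The fitted differences in CON had a median of -0.004 over the markers, from -0.33 (0.21) for MARCO to 0.24 (0.13) for CD14, and 0 of 9 were called, where 0% of all genes were. The change in MUN minus the change in CON was largest for C1QB at 0.86 (0.47) and C1QC at 0.83 (0.49), and had its smallest p for MARCO at 0.78 (0.32, unadjusted p = 0.0244, adjusted p = 0.999). For 7 of 9 markers it was above 0, and 0 of 9 were called, where 0% of all genes were.

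**Figure D3:**
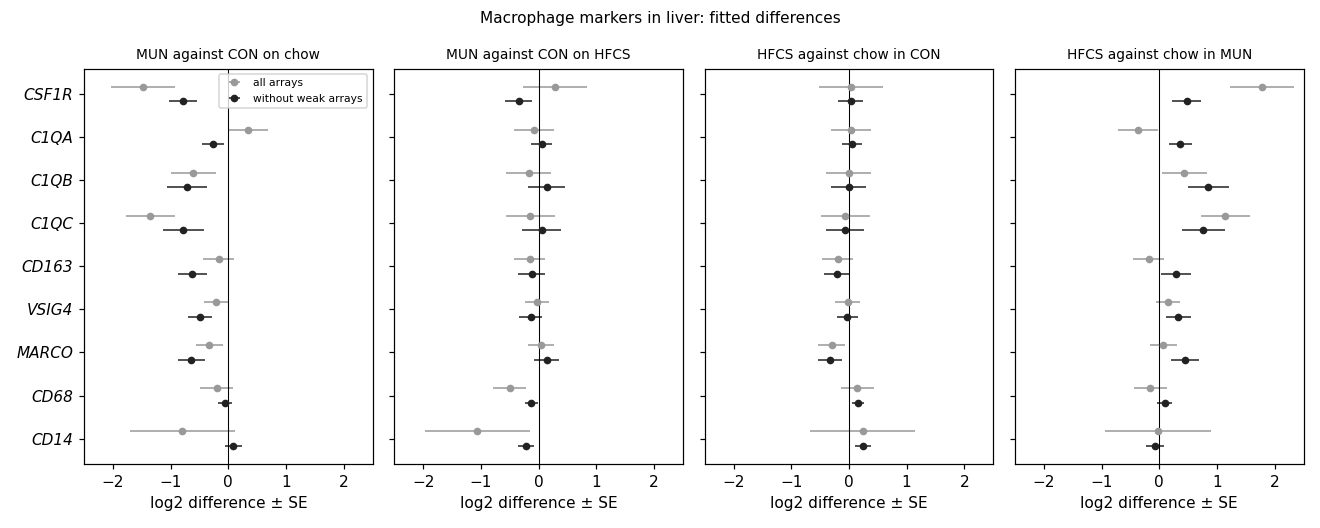
Fitted log2 differences of the markers in liver with their standard errors (horizontal axis) for 4 comparisons, in grey with all arrays and in black without the 3 weak arrays. On chow the black points of 8 markers lie below 0, and in MUN those of 8 markers lie above 0 for HFCS against chow. The weak arrays move CSF1R, C1QA and CD14 by the most.

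In adipose tissue no array was weak, and no marker was called between the maternal groups. On chow 8 of 9 markers were lower in MUN, but the median was -0.12, and the differences ran from -0.23 (0.33) for C1QB to 0.004 (0.12) for CD68. On HFCS 4 of 9 were lower, with a median of 0.004, and the differences ran from -0.58 (0.39) for CD14 to 0.08 (0.18) for C1QA. In both comparisons 0 of 9 markers were called, where 0% of the 9277 genes tested on chow and 0.0216% of those on HFCS were.

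CSF1R had the smallest p in fat. On HFCS it stood at 9.93, 10.61 and 10.92 in CON and at 9.82, 10.04 and 10.28 in MUN (lowest, median and highest of 6). CON replicate 2 lay within the MUN range and 5 CON arrays lay above all of the MUN arrays. The difference was -0.46 (0.19, unadjusted p = 0.0234, adjusted p = 0.406). The markers had no common direction in this comparison. LYZ, the lysozyme of myeloid cells, was picked from the pan-myeloid genes. It stood at -0.45 (0.20, adjusted p = 0.458) and was not called. The other genes of that list are not given here for fat, so LYZ does not stand for it.

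Single animals of a group lay far apart in fat. C1QC on chow ran from 9.51 to 10.73 in CON and from 9.14 to 11.11 in MUN. CD14 on chow ran from 10.12 to 10.88 in CON and from 9.11 to 12.06 in MUN. The animal at the top of CD14 was MUN replicate 5, which also had the highest MARCO of all adipose arrays, at 9.07.

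On HFCS the sexes parted in the CON group. In each of the 3 CON females 8 of 9 markers were lower on HFCS, with median changes of -0.40, -0.97 and -0.55, and CD163 was the exception in 2 of them. CON males 5 and 6 had 9 of 9 markers higher, with medians of 0.54 and 0.32, and CON male 4 had 5 of 9 higher, with a median of 0.02. C1QC, for example, went from 10.41, 10.21 and 10.73 in the CON females to 9.50, 8.90 and 10.14, and from 9.51, 9.76 and 10.28 in the CON males to 9.53, 10.49 and 11.09. The fits within each sex, chosen after the values were seen, gave a median of -0.66 in CON females and 0.48 in CON males and called no marker, and the difference between the sexes was not tested.

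In MUN fat neither sex shared 1 direction. MUN females 1 and 3 had 8 of 9 markers lower on HFCS, and MUN female 2 had 6 of 9 higher. Of the MUN males, replicate 6 had 9 of 9 higher, replicate 4 had 6 of 9 higher and replicate 5 had 8 of 9 lower. The difference between the sexes was not tested here either. The fitted change had a median of -0.18 in CON and -0.07 in MUN, the difference of the changes a median of 0.07, and in each of the 3 comparisons 0 of 9 markers were called, where 0% of all genes were.

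**Figure D4:**
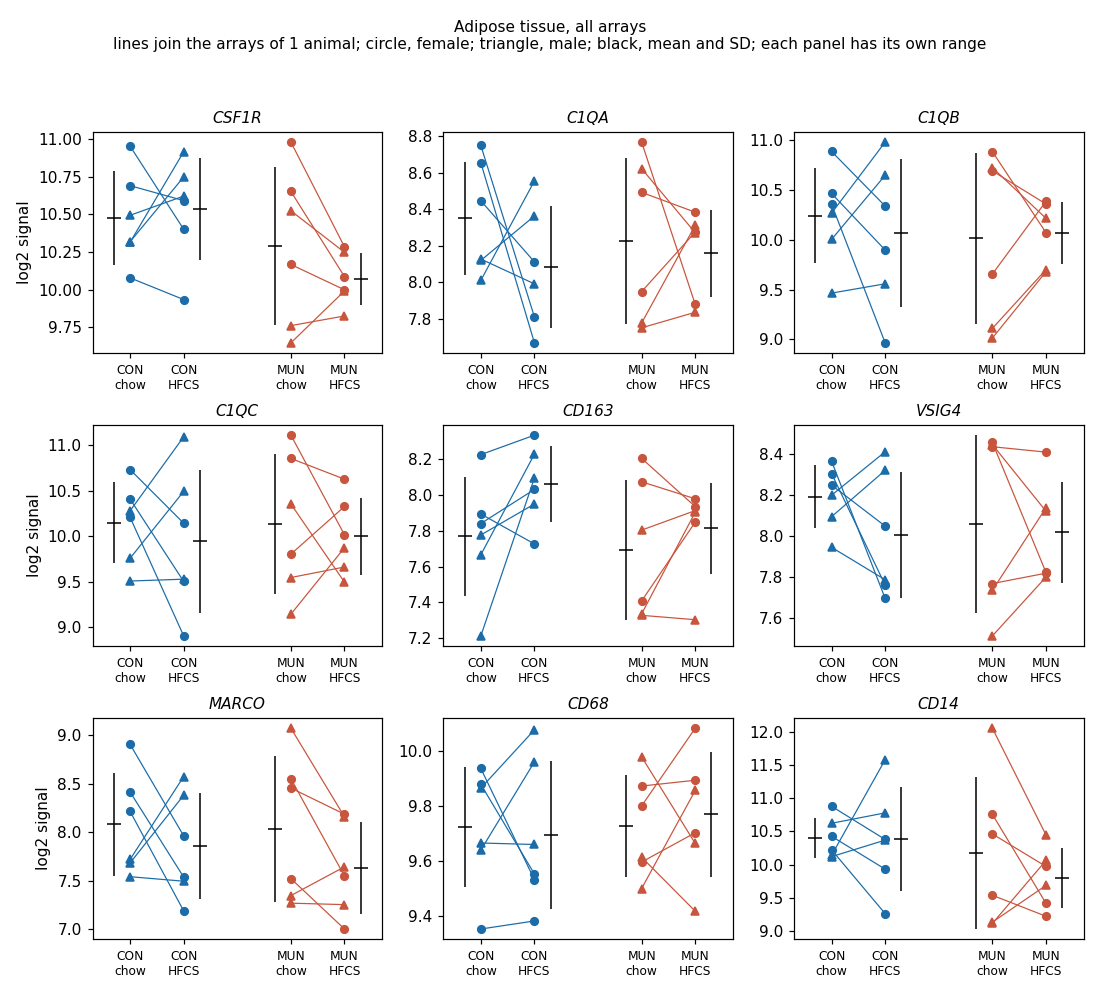
Log2 signal of each marker (vertical axis, its own range in each panel) in CON and MUN adipose tissue on chow and HFCS over all 24 arrays. Lines join the arrays of 1 animal, circles are females, triangles males, and black marks the group mean and SD. In CON the lines of C1QB, C1QC and CD14 slope down for the 3 females and up for the 3 males.

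In muscle the 7 markers that passed the filter showed no called difference. Without the weak array 7 of 7 were lower in MUN on chow, with a median of -0.26. Of these 0 of 7 were called, where 0% of the 8052 genes tested were. The CON arrays include replicate 1, which carried ALB, and the count of lower markers without it is not given here. C1QA and VSIG4 were each detected on 10 of 24 muscle arrays and C1QB on 12, so their differences lie near background. No share of all genes that were lower stands beside the count. C1QC stood at 7.92, 8.87, 7.72, 7.50 and 7.41 in CON replicates 1, 2, 3, 4 and 6 and from 7.15 to 7.93 in MUN (median 7.45), a difference of -0.41 (0.19, unadjusted p = 0.0419, adjusted p = 0.694). The highest array, CON replicate 2, stood apart in C1QB as well, at 8.49 where the other CON arrays lay at 7.36 or below. Without that animal, weak array included, the C1QC difference on chow was -0.17 (0.13).

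CD14 in muscle rested on the array that carried ALB. It stood at 10.42 on CON replicate 1 on chow and at 7.53, 7.67, 7.76 and 8.12 on the other CON arrays. The MUN minus CON difference on chow was -0.55 (0.35), and over 3 hepatocyte genes the mean was 12.75 on that array and at most 7.30 on every other muscle array that was not weak. Without this array and the weak one the CD14 difference was -0.02 (0.20).

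HFCS gave no called marker in muscle either. In CON, with the weak array left out, CD68 differed by -0.40 (0.19, unadjusted p = 0.0416) and C1QC by -0.40 (0.19, unadjusted p = 0.0485), and 0 of 7 were called, where 0.546% of all genes were. The C1QC value rested on CON replicate 2, which went from 8.87 to 7.23, and over all other animals, weak array included, the difference was -0.11 (0.14). TRAF6, an adaptor of Toll-like receptor signalling, was called higher, by 0.38 (0.08, adjusted p = 0.0470). In MUN 6 of 7 were higher, with a median of 0.09, and 0 of 7 were called, where 0% of all genes were. On HFCS the MUN and CON muscles differed by a median of -0.02, with 0 of 7 called, where 0% of all genes were.

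For the sexes, both arrays of an animal were kept together through a random animal effect. No marker was called in any tissue, where 0.253% of genes were called in liver without the weak arrays, 0.614% in adipose tissue over all arrays and 0.534% in muscle without the weak array. In liver the female minus male difference of C1QC was 0.55 (0.26, adjusted p = 0.512), and that of CD14 was -0.23 (0.11, adjusted p = 0.501). In adipose tissue CD163 differed by 0.25 (0.11, adjusted p = 0.306). Of the genes listed beside the markers, the nuclear receptor NR1H3 was called higher in female muscle, by 0.41 (0.07, adjusted p = 0.00707), and ADIPOQ and the muscle troponin TNNT3 were called higher in female fat, by 0.39 and 0.57. The female muscle arrays include CON replicate 1 on chow, which carried ALB, and no value of NR1H3 without it is given. ADIPOQ had a median of 7.25 in adipose tissue and 7.24 in muscle, so its signal did not set fat apart.

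The difference between MUN and CON on chow was also set against that of the other tissues. Without the weak arrays the liver difference minus the muscle difference had its smallest p for CD163, at -0.64 (0.26, unadjusted p = 0.0175, adjusted p = 0.777), and ran over the markers from -0.66 (0.34) for MARCO to 0.63 (0.52) for CD14. CD163 was detected on 1 of 24 muscle arrays and MARCO on 2 of 24. Their values against muscle therefore set the liver difference against signals near background and do not compare 2 measured differences. Against adipose tissue the smallest p was again that of CD163, at -0.57 (0.26, adjusted p = 1.00), and the values ran from -0.73 (0.47) for C1QC to 0.32 (0.51) for CD14. With the weak arrays in, the values of CD163 were -0.14 (0.28) and -0.12 (0.28). None of the 9 markers was called in either comparison, and 1 of 10966 genes was in each without the weak arrays.

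The last comparison asked whether the markers went together from animal to animal. The deviations of each animal from its group means were correlated over the 12 animals (11 in liver, where the weak arrays were left out), for 93 pairs of markers in all. Both genes of a pair share the array and its normalisation. No share of positive pairs among other genes stands beside the counts below, so how much of them such sharing would give is not known. In adipose tissue 36 of 36 pairs were positive, with a median r of 0.71, and 29 pairs had an adjusted permutation p under 0.05 by r, of which 23 also did by rho. C1QA and VSIG4 had r = 0.91 (rho = 0.91, adjusted permutation p = 0.0033), and r was 0.88 with the 2 outermost animals left out.

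In liver CD14 and CD68 had a negative r to the mean of the other markers. There 22 of 36 pairs were positive, with a median r of 0.44, and 10 had an adjusted p under 0.05 by r, of which 5 also did by rho. C1QB and C1QC had r = 0.86 (rho = 0.91, adjusted permutation p = 0.00753, and r = 0.81 without the 2 outermost animals). CD14 ran against the other markers, with r = -0.70 to their mean, and against MARCO r was -0.70 (adjusted permutation p = 0.0403, and r = -0.66 without the 2 outermost animals), while rho was -0.56 and did not pass (adjusted permutation p = 0.122). CD68 had r = -0.26 to the mean of the others in liver and 0.81 in adipose tissue. None of its liver pairs had an adjusted permutation p under 0.05 by r or by rho, so its place in liver is not settled.

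**Figure D5:**
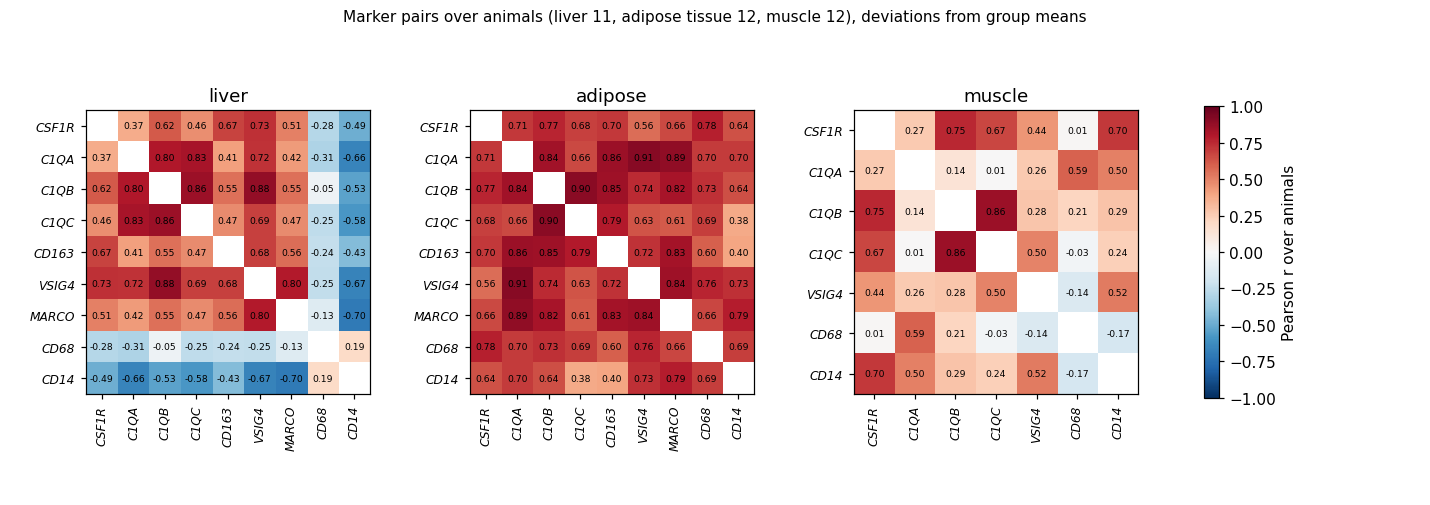
Pearson r between pairs of markers over animals (11 in liver, 12 in adipose tissue and 12 in muscle), from deviations from group means without the weak arrays. Red is positive and blue negative. All pairs are red in adipose tissue, and in liver the rows of CD68 and CD14 are blue against the other 7.

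In muscle 18 of 21 pairs were positive, with a median r of 0.28, and 4 had an adjusted p under 0.05 by r and by rho. The animals include CON replicate 1, whose chow array carried ALB and stood out in CD14. CSF1R and CD14 are among the 4, with r = 0.70, and r was 0.61 without the 2 outermost animals. No value without that array is given. C1QB and C1QC again went together (r = 0.86, rho = 0.82, adjusted permutation p = 0.00581, and r = 0.76 without the 2 outermost animals). CD68 had r = 0.11 to the mean of the other markers.

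Of the genes outside the 9, those with the highest r to the mean of the standardised markers were picked as a description. They are the highest of all genes of a tissue over few animals, and how high r would rise for unrelated genes was not tested. In muscle the markers themselves had r from 0.11 (CD68) to 0.76 (CSF1R) to the mean of the others. In adipose tissue they were NCKAP1L, FCER1G, TIMD4, COTL1, TBXAS1 and CD37, with r from 0.89 to 0.96 over 12 animals. NCKAP1L belongs to the actin machinery of blood cells, TBXAS1 is thromboxane synthase and CD37 is a tetraspanin of leukocytes. In liver they were MFNG, PPP1R3C, TMSB10, RHOG, CD74 and MSN, with r from 0.86 to 0.92 over 11 animals, where CD74 is the invariant chain of MHC class II. In muscle they were SIDT2, TRIM52, CYBRD1, LYZ, PEPD and SMAP2, with r from 0.84 to 0.86 over 12 animals.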

How the data were processed

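RNA from 3 tissues of 12 baboons was hybridised to 72 Illumina HumanHT-12 v4 arrays, whose probes were designed on human transcripts. The authors deposited intensity values per probe, not normalised (exported with GenomeStudio, version not given in the sources used here), each with a detection score, and a table of normalised values, used as an alternative only, whose arrays share nearly the same median intensity (121.04 to 121.05). How that table was normalised is not given in the sources used here. Of the 47231 probes with a signal, 11143 are not in that table and were not named. The deposited detection score is headed as a p-value but rises with the signal, so it was read as a score, and a probe was kept in a tissue where the score passed 0.95 on at least 6 of 24 arrays.

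Signals were log2 transformed and quantile normalised within a tissue, and over 72 arrays for comparisons between tissues. The brightest kept probe with 1 symbol stood for a gene. Group means were fitted with limma 3.58.1 (R 4.3.3), and p-values were adjusted by Benjamini-Hochberg over all genes. A call required an adjusted p under 0.05 and a fold of at least 1.2. Pairs of markers were tested by two-sided permutation with 100000 resamples. The scripts were tested on simulated data. The labels name the animal, so arrays of 1 animal are paired. The median correlation of an animal's deviations on the 2 diets was 0.368 in liver, 0.203 in adipose tissue and 0.176 in muscle. The main fit had no block. Weak arrays were left out in a second fit of each comparison.

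The 9 markers and the 20 other gene lists were chosen with earlier results of these data known. Beyond the markers, the text names up to 4 genes of a list with the smallest p, genes of a list that were called, the 6 genes per tissue most like the markers, and tissue markers. The number of arrays limits the precision.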

Additional observations from a re-analysis of the deposited data

Results flagged for a closer look

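Of 164 groups of arrays examined for 1 array far from the rest, 12 held one, and chance alone gives about 1 in 20. On weak liver arrays of MUN replicate 4, CSF1R stood at 13.40 on HFCS (next 10.09), C1QA at 10.08 on chow (next 8.18), CD14 at 6.72 on chow and 7.66 on HFCS (next 12.57 and 12.39), and CD68 at 7.00 on HFCS (next 9.19). On the weak liver array of MUN replicate 6 on chow, CD68 stood at 8.52 (next 9.08). In adipose tissue, CD163 of MUN replicate 4 on HFCS stood at 7.30 (next 7.85). In muscle on chow, C1QA stood at 7.99 on the weak array of CON replicate 5 (next 7.38). C1QB and C1QC of CON replicate 2 stood at 8.48 and 8.85 (next 7.39 and 7.94), and C1QB at 8.49 with the weak array left out. CD14 of CON replicate 1, the array that carried albumin, stood at 10.42 with the weak array left out (next 8.12).

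In 13 of 73 splits of the diet change by sex, counted with and without the weak arrays, every female went one way and every male the other. None of 41 splits by maternal group was of this kind. A split by sex holds fewer animals and so parts fully more often by chance, so the 2 counts cannot be compared. The 13 are not independent, as markers go together and the same animals can count with and without the weak arrays. These differences between the sexes were not tested. In MUN liver with the weak arrays in, the change in females minus that in males was 2.15 for C1QA, 1.89 for C1QB, 1.36 for CD163, 1.17 for MARCO and 0.85 for VSIG4. Of the 3 males, replicates 4 and 6 rest on weak arrays. In CON adipose tissue it was -0.65 for CSF1R, -1.32 for C1QB, -1.46 for C1QC and -1.27 for CD14. In muscle it was -1.31 for CSF1R in CON (-1.03 without the weak array) and 0.38 for CD68 in MUN (0.39 without it).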

How the results depend on the processing

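The number of markers called within a tissue was 0 under every alternative run. For liver or adipose tissue against muscle it was 9 under every one, where the calls of CD163 and MARCO add nothing. Only for liver against adipose tissue did the number vary. There 3 were called over all arrays, 5 without the weak arrays, 5 with array weights and 5 with the animal as a replicate block without the weak arrays; the added ones were C1QC and CD68. Leaving out 1 animal at a time gave 3 to 4, the fourth being CD68 (0.30) without MUN replicate 4, and with no fold threshold VSIG4 (0.20) was also called. The replicate block changed no other call. Of 4661 values of single markers under alternatives, 9 gained a call, 0 lost one and 0 called values changed sign. Among values that were not called, 381 changed sign, and 40 of these also moved by more than the spread between animals. The 4612 values in neither the 9 nor the 40 kept their call. A shift that kept its sign was not counted, however large, so these 4612 need not lie close to their main value. Requiring detection on all 24 arrays left 1 marker in liver, so it says little there. Fits within 1 sex and without muscle CON replicate 1 on chow were chosen after seeing the data. The weak arrays, signals near background for CD163, C1QA, C1QB, VSIG4 and MARCO in muscle, and 4 to 6 animals per group limit all comparisons.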
